A study of Anser cygnoides with 6 samples.

Results

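The 10 genes described here encode matricellular proteins, which cells secrete into the extracellular matrix to change how cells adhere, migrate and receive growth factors rather than to bear load. They were chosen as the rows of the gene table named TNC, POSTN, SPP1, THBS1, THBS2, SPARC, SMOC2, EGFL6, MXRA5 and CTGF, and all 10 were found among the 14283 genes of that table. The genes were chosen by name from an earlier reading of the same FPKM values, in which the proliferating and differentiating cultures had been compared. Their values in these stages are therefore given as a description, with no test. Tests are given for relatives, receptors, partners and pathway genes outside the group, whose lists were also drawn up with earlier results of these data known, so that their p-values are not independent support either.

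Matricellular proteins bind integrins, syndecans and other receptors on one side and collagens, fibronectin and growth factors on the other. Many of them are made at high levels in embryos and in healing tissue and at low levels in resting adult tissue. In skeletal muscle they come from myogenic cells as well as from the connective tissue between the fibers.

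Primary myoblasts, the precursor cells of muscle fibers, came from the leg muscles of wild-type Shitou goose embryos at 15 days of incubation, and cells of 10 embryos were mixed, plated serially to remove fibroblasts and spread over 6 cultures. GM cultures, 3 in number, were taken during proliferation in medium with fetal bovine serum, which the labels give as 15%. The study's methods give 15% for resuspending the cells but a higher percentage where the medium was changed for differentiation. The 3 DM cultures were grown to a higher density and then kept in 2% horse serum, a condition that lets myoblasts fuse, for 3 days in the study's methods and for 2 to 4 days in the labels. Stage, serum and cell density changed together, so their effects cannot be told apart, and with 1 library per culture the replicates differ as cultures of a mixed pool and not as animals.

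The authors deposited an FPKM value for each gene in each library, that is, fragments scaled by gene length and by the number of mapped fragments, so that levels can be set side by side between genes. The files used here hold no reads per gene, so the number of reads behind each value is unknown. The median FPKM of the genes above 0.0001 FPKM, which stands in the table for 0, ranged from 3.70 to 3.80 in GM and from 3.82 to 3.94 in DM. Pearson's correlation of log2(FPKM + 1) across genes, which are not independent replicates, was between 0.965 and 0.974 within a stage and between 0.929 and 0.936 across stages. The myoblast markers PAX7, MYF5 and MYOD1 fell in DM, and the myotube markers MYH15 and MYOM3 rose. Other markers did not follow the labels in this way. NCAM1, on the myoblast list, averaged 8.98 FPKM in GM and 13.6 in DM (log2 difference 0.54, limma adjusted p = 0.00825, short of the limit on the fold change), and MYOG, on the myotube list, averaged 26.3 FPKM in GM and 19.1 in DM (log2 difference -0.45, limma adjusted p = 0.0528). The 4 myoblast markers found summed to 88.1 to 96.0 FPKM in GM and 43.1 to 47.0 FPKM in DM, and the 8 myotube markers to 123.5 to 129.4 FPKM and 154.1 to 163.3 FPKM. Of these 8, only MYH15 and MYOM3 were called, and MYH15 averaged 19.7 FPKM in GM and 44.7 in DM. TNNC1 and MEF2C were higher in DM (limma adjusted p = 0.00102 and 0.00142) but short of the limit on the fold change. TMEM8C, TNNT2 and ACTA1 had limma adjusted p of 0.0940, 0.261 and 0.179, and the stages overlapped for TNNT2 and ACTA1. ACTA1 averaged 38.2 FPKM in GM and 32.4 in DM. DES, CDH15 and CKM were not analysed here.

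All 10 genes had a mean of at least 0.5 FPKM and entered the fit across the 10381 genes above that limit. The rule for a call in that fit was a Benjamini-Hochberg adjusted p under 0.05 from limma on log2(FPKM + 1) and a log2 fold change beyond 1. Under that rule 7 of the 10 fell on the lower side in DM, where 1.84% of all tested genes did, and 2 on the higher side, where 2.18% did, with THBS2 on neither. Because the same values chose the genes, these counts and the standard errors given for the 10 genes only describe them, and nothing is read from them as a test. The libraries of the 2 stages did not overlap for any of the 10 genes, beside 48.6% of all tested genes. The median log2 difference (the fold change of DM over GM on that scale, in which adding 1 understates the change of low genes) was -1.54 over the 10 genes and -0.03 over all tested genes. In whole cultures, fewer cells of a type and less RNA per cell cannot be told apart.

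**Figure D1:**
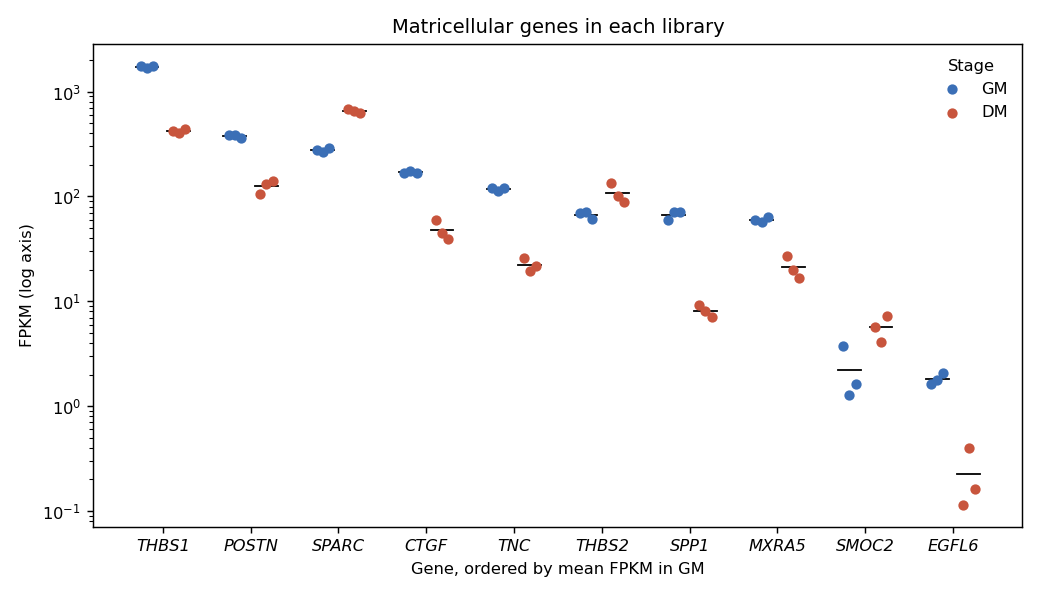
FPKM of the 10 matricellular genes on a log axis, with 1 point per library (blue, GM; red, DM) and a black line at the mean of the 3 libraries of a stage. Points of the stages do not overlap for any gene. SPARC, THBS2 and SMOC2 sit higher in DM and the other genes lower, and THBS1 has the highest level in GM.

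THBS1 encodes thrombospondin-1, a trimeric glycoprotein that can activate latent TGF-beta and that binds CD36, CD47 and integrins. It had 1740.0, 1666 and 1757 FPKM in GM_1, GM_2 and GM_3 and 420.3, 400.5 and 440.7 FPKM in DM_1, DM_2 and DM_3. Every GM library was thus far above every DM library, and the mean was 4.09 times as high in GM as in DM. By FPKM it ranked 6 among all genes in every GM library and between 34 and 40 in the DM libraries. Its spread was small, with a coefficient of variation of 2.83% in GM and 4.78% in DM.

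THBS1 carried most of the summed FPKM of the group in one stage and not in the other. The 10 genes together averaged 2857 ± 50.8 FPKM in GM and 1415 ± 46.6 in DM (SD, n = 3 each), which is 1.60% and 0.777% of the total FPKM of the table. THBS1 made up 60.2% of that sum in GM and 29.7% in DM. Without THBS1, the other 9 genes averaged 1136 ± 3.50 FPKM in GM and 994.5 ± 51.0 in DM (SD, n = 3 each). That sum joins changes in both directions. Within it SPARC averaged 275.3 FPKM in GM and 654.6 in DM, and THBS2 and SMOC2 were also higher in DM, whereas the rest were lower. The sum therefore does not show how far those lower genes fell.

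THBS2, the paralog that forms the same kind of trimer, was on the other side. It had 69.2, 71.3 and 60.7 FPKM in the GM libraries and 135.05, 101.8 and 89.3 FPKM in the DM libraries. The DM values were all higher but spread widely, with a coefficient of variation of 21.7%. The log2 difference was 0.67 (standard error, SE, 0.16), short of the limit on the fold change, and the mean ratio of DM to GM was 1.62, or 1.43 without DM_1.

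The other thrombospondins, which are not among the 10 genes, were tested with limma. COMP, the pentameric thrombospondin of cartilage and tendon, had 2.91, 2.92 and 3.19 FPKM in GM and 17.2, 25.4 and 19.4 FPKM in DM. It rose by a log2 difference of 2.42 (SE 0.14, adjusted p = 0.000267). THBS3 averaged 6.48 ± 0.349 FPKM in GM and 10.2 ± 0.289 in DM (SD, n = 3 each, log2 difference 0.58, limma adjusted p = 0.00221), and THBS4 averaged 1.69 ± 0.0739 FPKM in GM and 0.727 ± 0.0200 in DM (SD, n = 3 each, log2 difference -0.64, limma adjusted p = 0.00135). Neither passed the limit on the fold change. THBS4 passed it with a pseudocount of 0.1. The thrombospondins thus lay on both sides of 0, and whether they differed from each other was not tested.

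TNC encodes tenascin C, a large hexameric glycoprotein that weakens the adhesion of cells to fibronectin. It had 119.6, 113.7 and 120.8 FPKM in the GM libraries and 25.7, 19.4 and 21.7 FPKM in the DM libraries. The lowest GM library was 4.42 times as high as the highest DM library, and the log2 difference was -2.36 (SE 0.10). Of the other tenascins, TNXB had 0.346, 0.307 and 0.305 FPKM in GM and 0.0431, 0.0456 and 0.0429 FPKM in DM, below the limit for testing. TNN and TNR stayed at or under 0.1 FPKM in every library, so that TNC was the tenascin with a level above 0.5 FPKM.

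POSTN encodes periostin, a fasciclin-domain protein that binds integrins and collagen and helps collagen cross-linking. It had 383.9, 382.0 and 358.6 FPKM in GM and 106.6, 131.1 and 139.8 FPKM in DM, a ratio of the means of 2.98. Unlike most of the group, POSTN was lowest in DM_1 among the DM libraries. TGFBI, the other fasciclin-domain gene of the lists and one induced by TGF-beta, had 262, 279 and 295 FPKM in GM and 201, 170 and 137 FPKM in DM. Its log2 difference of -0.73 (SE 0.14, limma adjusted p = 0.0130) did not pass the limit on the fold change.

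CTGF, also known as CCN2, encodes a cysteine-rich protein of the CCN family that binds integrins and growth factors and is a classical target of TGF-beta and YAP. It had 168.0, 173.0 and 168.3 FPKM in the GM libraries and 59.1, 45.2 and 39.5 FPKM in the DM libraries. The GM libraries lay close together, with a coefficient of variation of 1.65%, whereas the DM libraries had one of 21.0%. The mean was 3.54 times as high in GM as in DM.

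Of the other CCN genes, CYR61 and WISP2 fell in the test. CYR61 (CCN1), an immediate early gene that serum induces, had 183.3, 210.7 and 194.2 FPKM in GM and 42.2, 32.1 and 24.4 FPKM in DM, a log2 difference of -2.57 (SE 0.19, limma adjusted p = 0.000490). WISP2 (CCN5), the family member that lacks the C-terminal domain, had 15.4, 15.4 and 16.0 FPKM in GM and 3.39, 2.27 and 1.88 FPKM in DM, a log2 difference of -2.26 (SE 0.16, limma adjusted p = 0.000403). WISP1 averaged 8.47 ± 0.378 FPKM in GM and 5.76 ± 1.57 in DM (SD, n = 3 each, log2 difference -0.51, limma adjusted p = 0.0594). Over the alternatives the limma adjusted p of WISP1 was between 0.00410 and 0.157. NOV (CCN3) had 4.10, 5.05 and 3.98 FPKM in GM and 11.6, 6.92 and 4.45 FPKM in DM, so that its stages overlapped (log2 difference 0.61, limma adjusted p = 0.173). The log2 difference of NOV was 0.29 without DM_1 and 0.90 without DM_3, and its limma adjusted p was between 0.0411 and 0.317 over the alternatives. WISP3 was below the limit for testing. In CTGF, CYR61, WISP2, WISP1 and NOV alike, DM_1 was the highest of the DM libraries.

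**Figure D2:**
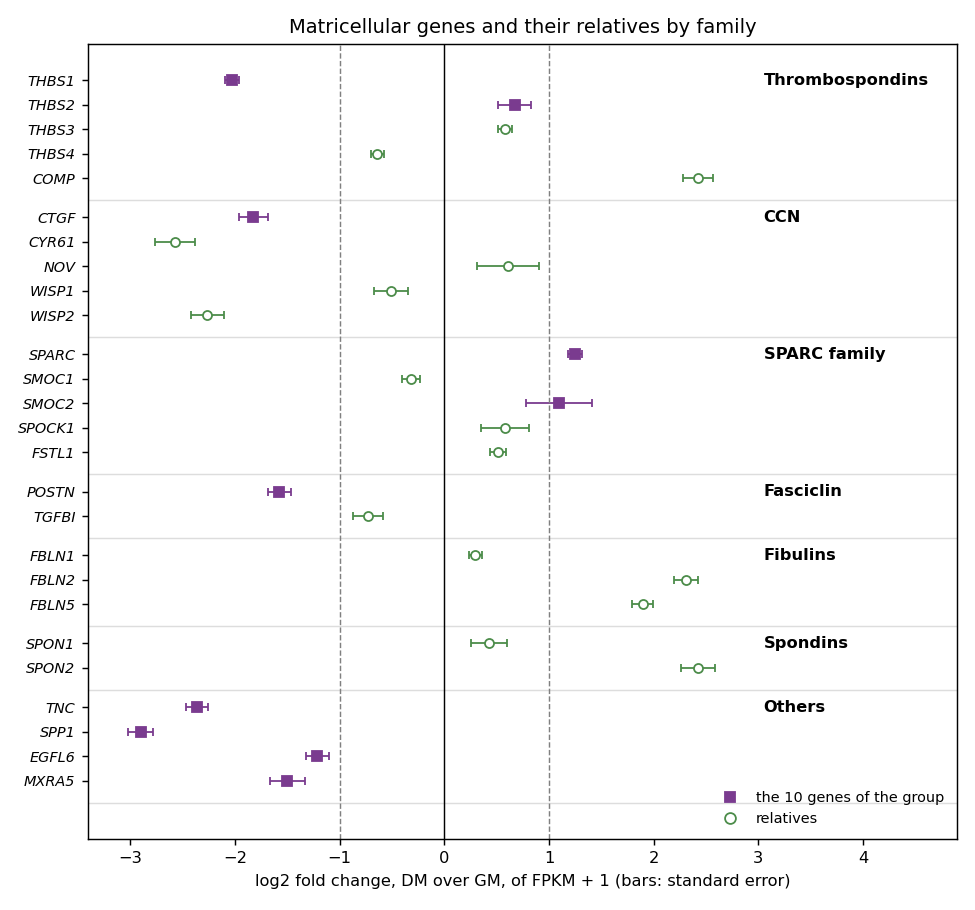
Log2 fold change (DM over GM) of log2(FPKM + 1), with bars of 1 standard error, for the 10 matricellular genes (filled squares) and for tested relatives (open circles), set out by family. Dashed lines mark the limit of 1 in either direction. CYR61 and WISP2 lie with CTGF on the left, whereas COMP, FBLN2, FBLN5 and SPON2 lie on the far right.

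SPP1 encodes osteopontin, an acidic phosphoprotein that binds integrins and CD44 and is made by osteoblasts, macrophages and myoblasts. It had 59.8, 70.3 and 71.1 FPKM in the GM libraries and 9.30, 8.05 and 7.06 FPKM in the DM libraries. The log2 difference of -2.90 (SE 0.12) was the largest fall on this scale among the 10 genes, and the mean was 8.24 times as high in GM as in DM. In GM its level could not be separated from those of THBS2 and MXRA5, and in DM it was below both. Of the genes related to SPP1 in the same gene cluster, IBSP was listed at 0.0001 FPKM in every library and DMP1 was at or under 0.1 FPKM in every library. Since macrophages also make osteopontin, their markers are set beside it. The 6 macrophage and leukocyte markers found had a summed level of 23.2 to 31.7 FPKM in GM and 24.3 to 32.4 FPKM in DM, and 0 of them were called or stood at 0.0001 FPKM in every library. CD74 varied widely, with 3.77, 12.0 and 4.31 FPKM in GM and 18.2, 7.80 and 7.65 FPKM in DM. It was the largest part of that sum in GM_2 and DM_1, whereas CSF1R was the largest in the other libraries. By limma's adjusted p alone 3 of the 6 were lower in DM, all short of the limit on the fold change. SPI1, a transcription factor of myeloid cells, averaged 6.23 FPKM in GM and 3.57 in DM (log2 difference -0.66, limma adjusted p = 0.00333), and LCP1, an actin-bundling protein of leukocytes, averaged 3.34 and 2.55 (log2 difference -0.29, limma adjusted p = 0.0350). PTPRC, the leukocyte marker CD45, had 0.998, 0.895 and 1.04 FPKM in GM and 0.443, 0.441 and 0.257 FPKM in DM (log2 difference -0.52, limma adjusted p = 0.00576). CSF1R and MARCO, also on this list, did not fall in the same way, and their stages overlapped. CSF1R averaged 7.79 FPKM in GM and 7.98 in DM (log2 difference 0.03, limma adjusted p = 0.838). MARCO had a log2 difference of -0.09 (limma adjusted p = 0.829). The part of macrophages in the level of SPP1 was not tested.

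EGFL6 and MXRA5 are the less studied genes of the group. EGFL6 encodes a basement membrane protein with EGF repeats that binds integrins, and it had 1.64, 1.77 and 2.08 FPKM in GM and 0.114, 0.396 and 0.163 FPKM in DM. Its mean was the lowest of the 10 genes in both stages, although in GM its libraries overlapped those of SMOC2. Because 1 is added to each FPKM, its log2 difference was -1.21 (SE 0.11), while the ratio of its mean FPKM, taken as a log2 without that addition, was -3.03. MXRA5 encodes a large secreted protein with leucine-rich repeats and immunoglobulin domains. It had 59.4, 57.5 and 63.6 FPKM in GM and 26.8, 19.7 and 16.6 FPKM in DM, a ratio of the means of 2.87, or 3.32 without DM_1.

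SPARC encodes osteonectin, a calcium-binding glycoprotein that binds collagen and helps its deposition. It had 274.9, 262.6 and 288.5 FPKM in the GM libraries and 680.0, 657.9 and 625.9 FPKM in the DM libraries. The lowest DM library was 2.17 times as high as the highest GM library, and the log2 difference was 1.25 (SE 0.07). With its coefficient of variation under 5% in both stages (4.71% and 4.16%), SPARC was below THBS1 and POSTN in GM and above every other gene of the group in DM.

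SMOC2 encodes a basement membrane protein of the SPARC family. It had 3.75, 1.28 and 1.62 FPKM in the GM libraries and 5.67, 4.08 and 7.21 FPKM in the DM libraries. The lowest DM library was only 1.09 times as high as GM_1, the highest GM library. The log2 difference was 1.10 (SE 0.31). Its call was lost with any library other than GM_1 left out in turn and with no filter on low values. In the RefSeq table of the Taihu goose assembly, THBS2 and SMOC2 are neighbors on the same chromosome with 0 annotated genes between them. Both were higher in DM, THBS2 without a call. Whether neighboring genes changed together more often than other genes was not tested.

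Among relatives of SPARC that were tested, 0 passed both limits. FSTL1, a follistatin-like protein of that family, averaged 93.7 ± 4.39 FPKM in GM and 134 ± 10.6 in DM (SD, n = 3 each, log2 difference 0.51, limma adjusted p = 0.00513). SMOC1, the paralog of SMOC2, averaged 0.813 ± 0.0964 FPKM in GM and 0.457 ± 0.127 in DM (SD, n = 3 each, log2 difference -0.32, limma adjusted p = 0.0391). Over the alternatives the limma adjusted p of SMOC1 was between 0.0312 and 0.112. SPOCK1 had 7.32, 7.73 and 7.11 FPKM in GM and 16.0, 11.9 and 7.86 FPKM in DM (log2 difference 0.58, limma adjusted p = 0.107). The log2 difference of SPOCK1 was 0.35 without DM_1 and 0.82 without DM_3, and its limma adjusted p was between 0.0133 and 0.222 over the alternatives.

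The order of the levels changed between the stages. In GM, THBS1 was followed by POSTN, SPARC, CTGF and TNC, each separate from the next in all libraries. THBS2, SPP1 and MXRA5 then followed at means of 67.1, 67.1 and 60.2 FPKM with overlapping libraries, and SMOC2 and EGFL6 overlapped at the low end. In DM the order began with SPARC and THBS1, which were separate from each other, and went on with POSTN and THBS2, which overlapped at means of 125.8 and 108.7 FPKM. CTGF, at 48.0 FPKM, stood apart from its neighbors. TNC and MXRA5 overlapped at means of 22.3 and 21.0 FPKM, as did SPP1 and SMOC2 at 8.13 and 5.65 FPKM.

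The DM cultures differed more among themselves than the GM cultures did for 8 of the 10 genes by the coefficient of variation, SPARC and SMOC2 being the exceptions. This comparison of spread was not made over all tested genes, so whether it is particular to the group is not known. DM_1 was the highest of the DM libraries for TNC, SPP1, THBS2, SPARC, MXRA5 and CTGF, that is, for 6 of the 10 genes, and over all tested genes DM_1 was the highest in 30.1%. Among the GM libraries, GM_3 was likewise the highest for 6 of the 10 genes, beside 35.2% of all tested genes. With DM_1 left out, 8 of the 10 genes were called, SMOC2 being lost. In that fit 227 genes were called higher and 197 lower among all 10395 tested. The same values chose the 10 genes, so their count is a description only.

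The gene table also lists pathways and functions for these genes. It places TNC, SPP1, THBS1, THBS2, EGFL6 and MXRA5 in ECM-receptor interaction, a pathway listed for 105 of the tested genes. Heparin binding was listed for POSTN, SPP1, THBS1, THBS2, SMOC2 and CTGF, of which 4 were lower and 2 higher in DM, and for 55 tested genes in all. Calcium ion binding was listed for THBS1, THBS2, SPARC, SMOC2 and EGFL6, and for 298 tested genes (2.87%) in all. The 3 genes that were higher in DM, SPARC, THBS2 and SMOC2, all carried that term, as did THBS1 and EGFL6, which were lower.

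Genes outside the lists with the most similar pattern were sought for SPP1 and SPARC, which had the largest fall and the largest rise among the 10 genes on the log2(FPKM + 1) scale, by the root-mean-square difference of log2(FPKM + 1) over the 6 libraries after each gene was centered on its mean. By the ratio of the means SMOC2 was ahead of SPARC (2.55 against 2.38). Among 10270 tested genes outside the group and the lists, those nearest to SPP1 were TNFRSF6B (0.147), RBP7 (0.194) and CYTL1 (0.334). TNFRSF6B, a decoy receptor of the TNF family, had 18.7, 18.2 and 19.9 FPKM in GM and 1.69, 1.14 and 1.03 FPKM in DM. Nearest to SPARC were LOC106029911 (0.0484), EDNRA (0.0538), which encodes an endothelin receptor, and LOC106029718 (0.0602). LOC106029911 had 0.543, 0.604 and 0.586 FPKM in GM and 2.81, 2.80 and 2.59 FPKM in DM. At such low levels adding 1 understates the change, so its likeness to SPARC is one on the log2(FPKM + 1) scale. EDNRA had 28.1, 27.6 and 27.9 FPKM in GM and 68.1, 69.8 and 68.4 FPKM in DM. These likenesses rest on the difference between 2 stages.

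Of the 30 relatives listed, which are paralogs of the 10 genes and other matricellular proteins, 26 were found and 18 were tested. Of these, 4 rose and 2 fell, beside 2.18% called higher and 1.84% called lower over all tested genes, and 12 did not pass. Their median log2 fold change was 0.36 beside -0.03 over all tested genes. The relatives that fell were CYR61 and WISP2. Beside COMP, those that rose were SPON2, FBLN2 and FBLN5. FBLN2, a fibulin of basement membranes and elastic fibers, had 20.5, 21.3 and 21.5 FPKM in GM and 126, 111 and 91.6 FPKM in DM (log2 difference 2.31, SE 0.12, limma adjusted p = 0.000197). FBLN5, a fibulin needed for the assembly of elastic fibers, had 5.42, 6.27 and 6.11 FPKM in GM and 21.8, 25.5 and 27.1 FPKM in DM (log2 difference 1.89, SE 0.10, limma adjusted p = 0.000201). SPON2, a spondin that binds integrins, had 2.91, 2.29 and 3.42 FPKM in GM and 23.03, 20.1 and 16.3 FPKM in DM (log2 difference 2.42, SE 0.16, limma adjusted p = 0.000348). The same 6 relatives passed under every alternative setting with both limits kept, with THBS4 added at a pseudocount of 0.1.

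Of the 25 receptors of matricellular proteins listed, 20 were found and tested. In limma 5 of them fell while 0 rose, beside 1.84% called lower and 2.18% called higher over all tested genes. At an unadjusted p under 0.05, 8 were lower and 2 were higher, beside 2306 lower and 2109 higher among all 10381 tested genes. CD36, a scavenger receptor that binds thrombospondins, had 11.6, 6.66 and 12.3 FPKM in GM and 1.88, 1.85 and 1.80 FPKM in DM (log2 difference -1.93, SE 0.21, adjusted p = 0.00175). ITGB3, the integrin beta 3 subunit, which pairs with alpha V to bind osteopontin, periostin and other ligands, had 40.6, 41.2 and 45.1 FPKM in GM and 18.3, 16.8 and 15.0 FPKM in DM (log2 difference -1.29, SE 0.09, limma adjusted p = 0.000361). Its partner ITGAV averaged 48.9 ± 2.13 FPKM in GM and 51.0 ± 1.88 in DM (SD, n = 3 each, log2 difference 0.06, limma adjusted p = 0.492).

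ITGA8, an integrin subunit that binds osteopontin and tenascin C, had 30.2, 29.7 and 30.0 FPKM in GM and 16.8, 12.4 and 10.02 FPKM in DM (log2 difference -1.16, SE 0.17, limma adjusted p = 0.00461). The syndecans are heparan sulfate proteoglycans that act as co-receptors for thrombospondins and tenascins. SDC2 had 223, 243 and 228 FPKM in GM and 82.9, 76.0 and 73.7 FPKM in DM (log2 difference -1.56, SE 0.07, limma adjusted p = 0.000124), and SDC1 averaged 91.5 ± 5.21 FPKM in GM and 41.7 ± 3.28 in DM (SD, n = 3 each, log2 difference -1.12, limma adjusted p = 0.000406). SDC3 averaged 1.06 ± 0.160 FPKM in GM and 3.02 ± 0.363 in DM (SD, n = 3 each). Its log2 difference of 0.97 (limma adjusted p = 0.00162) was just short of the limit, and it passed with a pseudocount of 0.1 and with GM_3 or DM_1 left out. LRP1, an endocytic receptor for thrombospondins, averaged 52.0 ± 5.13 FPKM in GM and 63.4 ± 4.91 in DM (SD, n = 3 each, log2 difference 0.28, limma adjusted p = 0.0703). ITGA3, ITGA5, ITGA7, CD44 and CD47 were not analysed here.

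**Figure D3:**
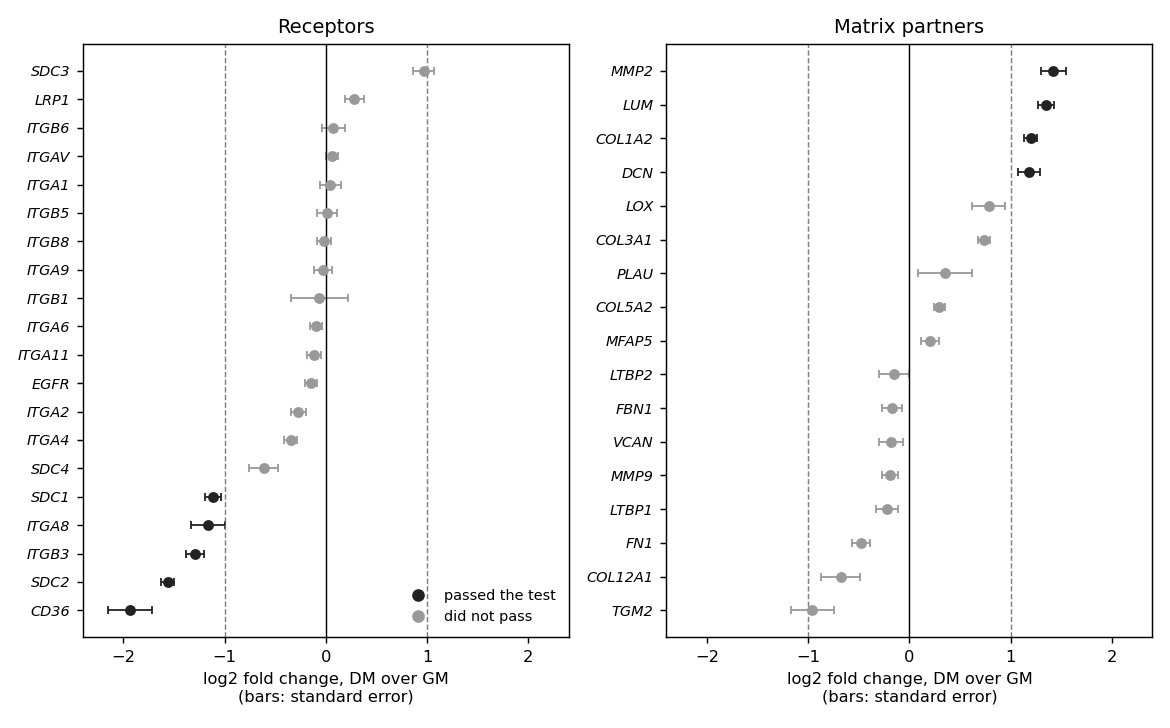
Log2 fold change (DM over GM) of log2(FPKM + 1), with bars of 1 standard error, for the 20 tested receptors (left) and the 17 tested matrix partners (right). Black points passed both limits in limma and grey points did not, and dashed lines mark the limit of 1. The 5 receptors that passed are lower in DM and the 4 partners that passed are higher.

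Matrix proteins and enzymes that bind, cross-link or cleave beside matricellular proteins were listed as partners. Of 23, 17 were found and tested. In limma 4 of them rose while 0 fell, beside 2.18% called higher and 1.84% called lower over all tested genes. At an unadjusted p under 0.05, 7 were higher and 4 were lower, beside 2109 higher and 2306 lower among all 10381 tested genes. MMP2, a gelatinase, had 69.6, 76.9 and 72.9 FPKM in GM and 164, 210 and 224 FPKM in DM (log2 difference 1.42, SE 0.12, adjusted p = 0.000879). LUM, the collagen-binding proteoglycan lumican, averaged 352 ± 17.8 FPKM in GM and 899 ± 54.1 in DM (SD, n = 3 each, log2 difference 1.35, limma adjusted p = 0.000209). DCN, the related proteoglycan decorin, had 437.4, 464.3 and 419.0 FPKM in GM and 863.4, 1053 and 1096 FPKM in DM. It had a log2 difference of 1.18 (limma adjusted p = 0.001000), and COL1A2, a chain of type I collagen, had one of 1.20 (limma adjusted p = 0.000220), which was 0.99, and no longer past the limit, under quantile normalization. COL3A1, a chain of type III collagen, averaged 509 ± 16.5 FPKM in GM and 850 ± 13.5 in DM (SD, n = 3 each, log2 difference 0.74, limma adjusted p = 0.000612). FN1, which encodes fibronectin, averaged 1087 ± 88.8 FPKM in GM and 780 ± 50.9 in DM (SD, n = 3 each, log2 difference -0.48, limma adjusted p = 0.0113).

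DCN, LUM and COL3A1 are also markers of fibroblasts, which make SPARC, POSTN, TNC and other matricellular proteins. Of 9 fibroblast markers, 8 were found, and PDGFRA, DCN and LUM rose. The summed level of the 8 was 1345 to 1400 FPKM in GM and 2680 to 2966 FPKM in DM, with 0 of them at 0.0001 FPKM in every library. DCN, LUM and COL3A1 made up most of that sum in both stages. THY1, TCF7L2, PDGFRB and FAP were not past the threshold. THY1 averaged 31.5 FPKM in GM and 43.6 in DM, and FAP 12.7 and 15.4. PDGFRB averaged 21.7 FPKM in GM and 21.2 in DM, and TCF7L2 2.06 and 1.56. The 5 tendon and cartilage markers found summed to 5.86 to 7.03 FPKM in GM and 5.63 to 7.62 FPKM in DM, and the 7 endothelial markers, of which EGFL7 is also on the list of relatives, to 3.47 to 3.81 FPKM and 2.28 to 2.43 FPKM. Only 3 and 2 of these markers reached the limit for testing, and 0 of those were called. Of the endothelial markers below that limit, CDH5, KDR, VWF and TIE1 were lower in DM with no overlap of libraries, whereas TEK overlapped. CDH5 averaged 0.471 FPKM in GM and 0.129 in DM. Among all 10381 tested genes, 2664 were lower in DM with no overlap. Of the endothelial markers tested, PECAM1 averaged 1.58 FPKM in GM and 1.08 in DM (log2 difference -0.31, limma adjusted p = 0.0219). EGFL7 averaged 0.620 and 0.914 (log2 difference 0.25, limma adjusted p = 0.117). The tendon and cartilage markers moved in both directions, which their sum does not show. MKX averaged 2.16 FPKM in GM and 4.62 in DM (log2 difference 0.81, limma adjusted p = 0.0136). COL2A1 averaged 2.77 and 1.35 (log2 difference -0.69, limma adjusted p = 0.00527). SOX9 averaged 0.806 and 0.344 (log2 difference -0.42, limma adjusted p = 0.0544). ACAN, below the limit for testing, was lower in DM with no overlap of libraries, whereas TNMD overlapped. Serial plating was used to remove fibroblasts before the cultures were set up. The part of other cell types in the levels of SPARC and the rest of the group was not tested.

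A list of TGF-beta, SRF and YAP pathway genes that act on matricellular genes, with other known targets of these pathways, held 30 genes, of which 19 were found and tested. In limma 2 fell and 0 rose, beside 1.84% called lower and 2.18% called higher over all tested genes. At an unadjusted p under 0.05, 8 of the 19 were lower and 1 was higher. Among all 10381 tested genes, 2306 were lower and 2109 higher at that unadjusted limit. TGFB2, a TGF-beta ligand, had 91.8, 88.3 and 96.4 FPKM in GM and 41.0, 36.1 and 35.0 FPKM in DM (log2 difference -1.28, SE 0.08, adjusted p = 0.000276). AMOTL2, an angiomotin that YAP induces, had 19.4, 22.8 and 25.8 FPKM in GM and 10.3, 8.95 and 9.27 FPKM in DM (log2 difference -1.16, SE 0.12, limma adjusted p = 0.00132). ANKRD1, another known target on the list, averaged 7.87 ± 1.04 FPKM in GM and 7.98 ± 0.710 in DM (SD, n = 3 each, log2 difference 0.02, limma adjusted p = 0.897). ACTA2, the smooth muscle actin that SRF and TGF-beta induce, averaged 458 ± 19.7 FPKM in GM and 243 ± 45.3 in DM (SD, n = 3 each, log2 difference -0.92, limma adjusted p = 0.00490). MYL9, a myosin light chain gene that SRF induces, averaged 81.8 ± 6.23 FPKM in GM and 80.6 ± 5.98 in DM (SD, n = 3 each, log2 difference -0.02, limma adjusted p = 0.870). SRF itself averaged 44.7 FPKM in GM and 25.6 in DM (log2 difference -0.78, limma adjusted p = 0.000341). VCL, also on the list, had a log2 difference of -0.77 (limma adjusted p = 0.000613). Both were short of the limit on the fold change. By limma's adjusted p alone, 6 of the 19 were lower and 1 was higher. With DM_1 left out, 4 genes of the list were lower, ACTA2 and SMAD7, an inhibitor that TGF-beta induces, beside TGFB2 and AMOTL2. TGFB1, TGFBR1, SMAD4 and TAGLN were not analysed here.

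The lncRNA table places 3 transcripts at a gene of the group, 2 at THBS1 and 1 at THBS2, each of 2 exons on the strand opposite the gene and overlapping its exons. The longer one at THBS1, of 425 bases, had 43.9, 61.1 and 42.1 FPKM in the GM libraries and 18.8, 13.2 and 13.5 FPKM in the DM libraries. Its libraries did not overlap between stages, as those of 25.0% of tested transcripts did not with DM lower, and it was lower in DM with THBS1 (log2 difference -1.63, SE 0.21, limma adjusted p = 0.0114 over the 12988 tested transcripts, of which 1.45% were called lower). Its FPKM was 2.53%, 3.67% and 2.398% of that of THBS1 in the GM libraries and 4.47%, 3.29% and 3.07% in the DM libraries. The library kit keeps the strand, but whether the strand was used when values were estimated is not given in the sources used here, so reads of THBS1 and of its antisense transcript may not have been told apart. The transcript at THBS2 was listed above 0.0001 FPKM in DM_1 alone, at 3.61 FPKM, and the shorter one at THBS1 in GM_2 alone, at 1.52 FPKM.

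**Figure D4:**
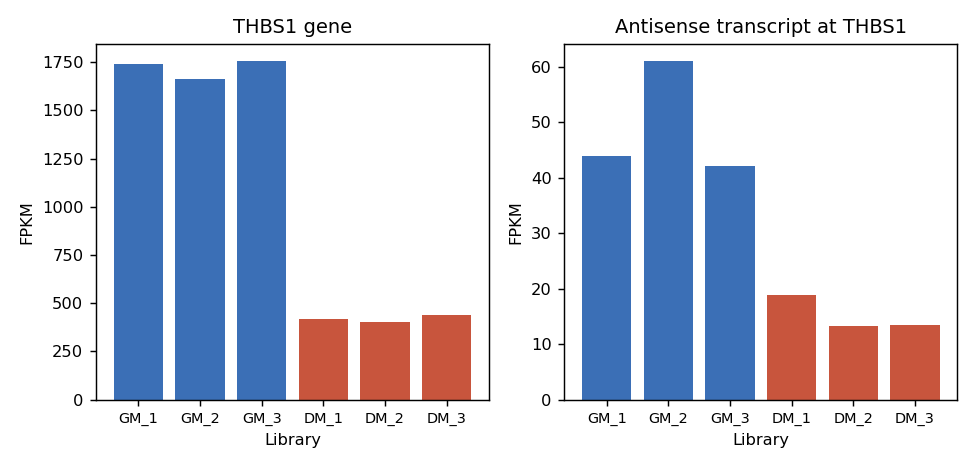
FPKM of the THBS1 gene (left) and of the 425-base antisense transcript at its position (right) in each library, on linear axes from 0 (blue, GM; red, DM). Both are lower in the 3 DM libraries. GM_2 is the lowest GM library for the gene and the highest for the transcript.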

How the data were processed

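Ribosomal RNA was removed and each culture gave 1 library. The authors used Cutadapt to trim reads, aligned them to the swan goose genome (Bowtie2 in the paper's methods, HISAT2 and TopHat in the submitters' processing notes), built transcripts with StringTie and deposited FPKM values from StringTie and Ballgown. The tables hold 14283 genes and, for lncRNAs, 14993 transcripts, and 0.0001 stands for 0. Low values did not fall on steps of whole reads, so reads per gene could not be recovered. Read totals per library are listed in the paper and were not used, and the precision given here is that of 3 libraries a stage. The length of each lncRNA transcript was taken as deposited. Columns with fold changes and p-values from the authors' own edgeR comparison were not used. Per-sample columns without a matching sample numbered 0.

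Because the values are FPKM and not counts, limma 3.58.1 in R 4.3.3 (lmFit, then eBayes with trend) was applied to log2(FPKM + 1) of all rows averaging 0.5 FPKM or more, with no term for the replicate number. Benjamini-Hochberg adjustment covered all tested rows. Calls needed an adjusted p under 0.05 together with a log2 difference (DM minus GM) beyond 1. A permutation test over 3 and 3 libraries, being exact, has 0.1 as its smallest two-sided p and was not run. The fit was also run on simulated data, drawn with the mean and the within-stage spread of each row of the deposited values. Of 200 rows changed 4-fold there, 79% were called in the right direction among genes and 20% among lncRNA transcripts. False calls were 2 of 160 and 1 of 41. Most 4-fold changes among the simulated lncRNA transcripts were thus missed.

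The members and the lists of relatives, receptors, partners, pathway genes and markers were chosen with earlier results of these data known. Genes named are the members, up to 6 called genes per direction and the 2 uncalled genes with the highest mean FPKM of each list, the markers, the 3 nearest genes of a pair of members, and up to 3 lncRNA transcripts a member. THBS3, THBS4, SMOC1, SPOCK1, NOV, WISP1, SDC3, SMAD7, ANKRD1, SRF, VCL, TGM2, TNXB, TNN, TNR, IBSP, DMP1 and WISP3 were named after their values were seen. Listed symbols without a row of their own in the table were not analysed here. The alternatives tried were a pseudocount of 0.1, rows kept without a filter or from a mean of 2 FPKM on, quantile normalization, calls by adjusted p alone, a block for the replicate number, and each library left out in turn. Python 3.11.15 with pandas 2.3.3, numpy 2.4.6 and matplotlib 3.10.9 served for the other steps.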

Additional observations from a re-analysis of the deposited data

How the results depend on the processing

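The log2 differences of the 10 matricellular genes kept their sign under every alternative that gave a value. With a library left out, SPP1 lay between -2.99 and -2.81 and SPARC between 1.21 and 1.28. The 7 genes called lower stayed called under each alternative, except that EGFL6 was below a filter of 2 FPKM and had no value there. The alternatives refit the same 6 libraries whose values chose the genes, so calls that stay are no independent support. With a pseudocount of 0.1 EGFL6 was at -2.66, and under quantile normalization SPARC was at 1.09. The 2 called higher became 1 with no filter and between 1 and 2 with a library left out, SMOC2 being lost. Over all genes, 413 were called higher and 397 lower with a pseudocount of 0.1, and 1530 and 1613 by adjusted p alone. These counts were 207 and 179 with no filter, and 204 and 176 with a filter of 2 FPKM. With a library left out, between 217 and 232 genes were called higher and between 188 and 200 lower. By adjusted p alone, the counts higher and lower were 7 and 5 for relatives, 1 and 8 for receptors, 7 and 3 for partners and 1 and 6 for the pathway genes. With a pseudocount of 0.1, 1 receptor was called higher (SDC3) and 1 partner lower (TGM2), and 3 pathway genes were lower, SMAD7 being added. With a library left out, the receptors called higher were between 0 and 1, the partners called lower between 0 and 1 (TGM2 without DM_1), and the pathway genes called lower between 2 and 4. MYL9 lay between -0.0730 and 0.0401 with a library left out, being 0.0401 without GM_3 and 0.0329 without DM_3, all each smaller in size than its standard error. Under quantile normalization COL1A2 lost its call and ACTA2 gained one. The causes were not tested.

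The replicate numbers do not pair the cultures. After the stage means were removed, the correlation of same-numbered libraries across genes was 0.03, 0.02 and -0.002. A block for the number left the calls among members and the 4 lists with the same genes, whereas the antisense transcript at THBS1 was not called in it (log2 difference -1.63, limma adjusted p = 0.0537), so that 0 transcripts at members passed. Under its other alternatives that adjusted p was between 0.00801 and 0.0482. No counts per gene come with the values, so no limit set by depth was computed. By the coefficient of variation of FPKM, SMOC2 in GM (60.4%) and EGFL6 in DM (67.0%), at the lowest levels, had the widest spread, whereas on the log2(FPKM + 1) scale the spread of EGFL6 within a stage (SD 0.146) was below that of MXRA5 (0.243).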
